A study of Homo sapiens with 6 samples.

Results

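Axon guidance ligands and receptors are 76 of the 58096 genes counted in this RNA sequencing of SH-SY5Y cells, a cloned human neuroblastoma line. They were taken by a rule on gene symbols, set with earlier results of these data known. The rule took every protein-coding gene of the GENCODE 29 annotation with a symbol of certain families. These are the semaphorins of classes 3 to 7, the plexins, the neuropilins, the ephrins and Eph receptors, the SLITs and ROBOs, and the netrins. The netrin receptors DCC, UNC5 and neogenin were also taken, with the repulsive guidance molecules RGMA and RGMB. The spelling of the rule also took in UNC50, a Golgi membrane protein gene, and UNC5CL, a gene of immune signalling named for its likeness to the UNC5 proteins. Neither is a guidance receptor, and they are kept in a group of their own.

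Group PGC1A received an adenovirus carrying PGC-1a, the transcriptional coactivator encoded by PPARGC1A and known for driving mitochondrial biogenesis. The control group, GFP, received an adenovirus carrying green fluorescent protein. Each group had 3 libraries, and every dish was given 2 ul of virus and harvested 48 h later. Both groups received virus, and the sources used here give no titre, no promoter and no share of infected cells, so a difference in virus dose and PGC-1a itself cannot be told apart. Whether the 3 libraries of a group are separate cultures is not stated in the labels. The p-values then describe the spread between these libraries only, and that spread may be technical.

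PPARGC1A was at 4083, 3966 and 4060 CPM (reads of a gene scaled to the library's size) in the PGC1A libraries, against 3.49, 3.95 and 3.79 CPM in the GFP libraries. The delivered gene thus separated the groups as labelled. Gene counts ranged from 24988743 to 31762496 per library. The line was checked against noradrenergic neuroblastoma markers, whose summed level was 497 to 510 CPM in PGC1A libraries and 1014 to 1022 CPM in GFP libraries. TH, which makes the first committed step of catecholamine synthesis, had only 21 counts over the PGC1A libraries and 0 over the GFP libraries. Transcripts of the mitochondrial genome took 13.7% to 14.2% of gene counts in PGC1A and 6.44% to 6.87% in GFP.

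Growing axons steer by reading attractive and repulsive cues with receptors on the growth cone. Semaphorins signal through plexins, with neuropilins as the ligand-binding partner for most secreted class 3 members. Ephrins are membrane-bound and signal to Eph receptor tyrosine kinases on touching cells, while the proteins behind them signal back. SLITs repel through ROBO receptors, and netrins attract through DCC or repel through UNC5 receptors, which are also known as dependence receptors that can trigger cell death when no ligand is bound. Neuroblastoma cells derive from the sympathoadrenal neural crest, whose migration uses some of the same cues.

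Guidance genes were mostly lower in PGC1A. Of the 71 members with enough reads to be tested, 46 fell and 18 rose at an adjusted p under 0.05 (edgeR quasi-likelihood test, Benjamini-Hochberg over all 19343 genes tested), and 7 were not called. The 18 include SEMA6B, which reached the count filter only in PGC1A libraries. The falls made up 64.8% of the tested members, beside 42.1% of all genes tested, and the rises 25.4%, beside 40.9% of all genes tested. At a called change of at least 2-fold, 29 members were lower and 6 higher, beside 16.8% lower and 19.0% higher among all genes tested. The groups did not overlap with PGC1A below GFP in 48 members (background 42.7%) and with PGC1A above GFP in 19 (background 40.9%). Of the 19343 genes tested, 16057 were called in either direction and 16180 had groups that did not overlap. A call or a lack of overlap was thus common to most genes, and these shares are the background of each class count below. The median log2 fold change of the tested members was −0.73, with a range of −3.46 to 5.06, against a median of −0.03 over all genes tested. No test of the list against other genes was made. Tested against a 1.5-fold change with glmTreat, 36 members were lower and 8 higher, beside 4475 lower and 4766 higher of all 19343 genes tested. The balance leans on the scaling, because scaling by library totals alone shifted the median log2 fold change of all genes by −0.33, and scaling by upper quartiles shifted it by −0.13. With total counts 12 members were called higher, in place of 18.

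The summed level of the 76 members, as CPM per kilobase of exon, was 388, 388 and 392 in the PGC1A libraries, against 537, 539 and 541 in the GFP libraries. As a share of all gene counts, which amounts to scaling by library totals, the members took 0.255% ± 0.00436 in PGC1A and 0.501% ± 0.00283 in GFP (SD, n = 3). Those totals include the mitochondrial genome and the delivered PPARGC1A, both higher in PGC1A. In whole-culture RNA, fewer cells of a type and less RNA per cell cannot be told apart. Receptors and ligands both fell for the most part. Among 31 tested receptor genes 23 fell and 5 rose, and their median log2 fold change was −1.18. Among 38 tested ligand genes 23 fell and 11 rose, and their median was −0.55. The difference between ligands and receptors was not tested.

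**Figure D1:**
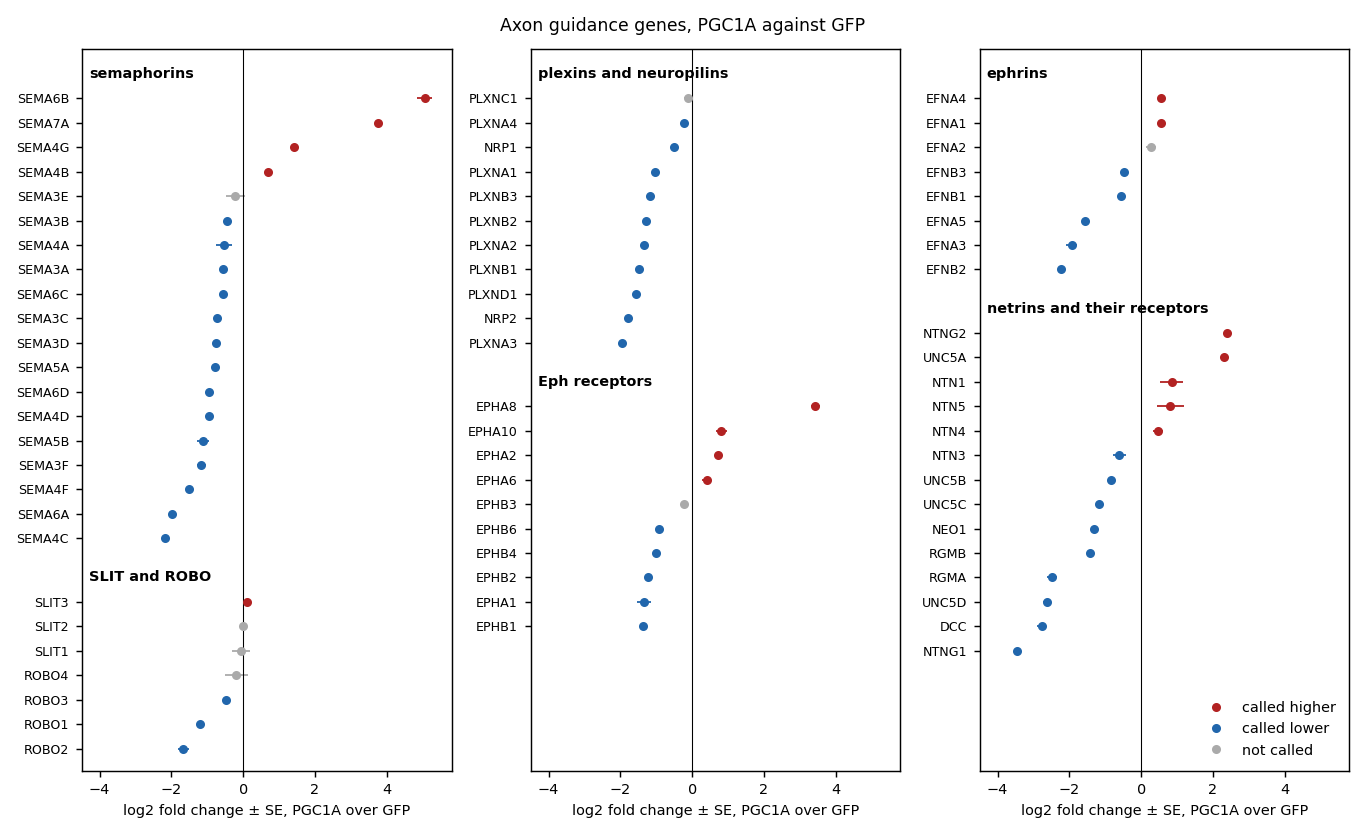
Log2 fold change of PGC1A over GFP on the horizontal axis for the 69 tested guidance genes by class, without UNC50 and UNC5CL; points are estimates from 3 libraries a group, bars are standard errors, and colour gives the call at an adjusted p under 0.05. The 11 plexins and neuropilins all lie below 0, while SEMA6B, SEMA7A, EPHA8, NTNG2 and UNC5A stand to the right; the point of SLIT3 lies left of 0 under upper-quartile or total-count scaling.

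Semaphorins divided into a few strong rises and many falls. Of 19 tested, 14 fell and 4 rose, SEMA6B among them, with a median log2 fold change of −0.73, and SEMA3G, with 5 counts over the PGC1A libraries and 35 over the GFP libraries, was too low to test. SEMA6B (ENSG00000167680.15, chromosome 19, 4542593 to 4559808, GRCh38) encodes a transmembrane semaphorin that binds plexins of class A. It was at 5.79, 5.39 and 5.71 CPM in PGC1A libraries, against 0.107, 0.211 and 0.168 CPM in GFP libraries. It was close to silent in GFP, with 16 counts over 3 libraries against 443 in PGC1A. No GFP library reached the count filter, so SEMA6B was tested only because of its PGC1A libraries, and its fitted log2 fold change of 5.06 (SE 0.21) is given as a description with no p-value. SEMA7A (ENSG00000138623.9, chromosome 15, 74409289 to 74433958) encodes a lipid-anchored semaphorin that signals through plexin C1 and through integrins. Its level was 29.6, 32.2 and 32.7 CPM in PGC1A libraries, against 2.17, 2.11 and 2.64 CPM in GFP libraries. All PGC1A values lay above all GFP values (log2 fold change 3.76, SE 0.08, adjusted p = 2.86e-39). Among the 76 members it ranked 16 by level per kilobase in PGC1A and 54 in GFP.

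The other semaphorins that rose belong to class 4, membrane proteins that mainly use plexins of class B. SEMA4G was at 36.7, 37.4 and 40.2 CPM in PGC1A libraries, against 14.8, 13.7 and 14.4 CPM in GFP libraries (log2 fold change 1.41, SE 0.05, adjusted p = 2.29e-29). Its exons share 27.4% of their bases with MRPL43 and an antisense gene, and MRPL43, a mitochondrial ribosomal protein gene, rose by 1.27 on the log2 scale. Reads in shared exon bases were not counted for either gene, so the SEMA4G level is understated. SEMA4B was at 43.0, 41.7 and 44.1 CPM in PGC1A libraries, against 24.8, 27.8 and 26.4 CPM in GFP libraries (log2 fold change 0.70, SE 0.04, adjusted p = 1.07e-19), again with no overlap.

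SEMA4C, the class 4 semaphorin known as a ligand of plexin B2, went the other way. It fell to 18.0, 17.7 and 19.0 CPM in PGC1A libraries, against 82.0, 83.6 and 81.3 CPM in GFP libraries (log2 fold change −2.17, SE 0.04, adjusted p = 1.26e-41). SEMA4F was at 7.06, 9.03 and 7.79 CPM in PGC1A, against 22.0, 22.4 and 23.4 CPM in GFP (−1.51, SE 0.07, adjusted p = 2.65e-25). Within class 4 the leading gene therefore differed between the groups. SEMA4C held 16.2% ± 0.154 of the summed level per kilobase of the 6 class 4 genes in PGC1A and 54.2% ± 0.591 in GFP (SD, n = 3). SEMA4G held 39.7% ± 0.568 in PGC1A and 11.1% ± 0.532 in GFP, and SEMA4B held 33.6% ± 0.751 in PGC1A and 15.2% ± 0.703 in GFP. SEMA4D, the ligand of plexin B1, was lower by a log2 fold change of −0.95, and SEMA4A was at −0.54. The SEMA4A call was lost without GFP replicate 3 (−0.51, adjusted p = 0.0571) or PGC1A replicate 2 (−0.35, adjusted p = 0.173), and with the DESeq2 Wald test.

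In class 6 the leading gene was SEMA6C in both groups, with 52.1% ± 1.72 of the summed level of the 4 genes in PGC1A and 48.8% ± 0.336 in GFP. SEMA6A, which binds plexins A2 and A4, fell to 8.96, 9.18 and 7.87 CPM in PGC1A libraries, against 33.8, 33.5 and 35.7 CPM in GFP libraries (log2 fold change −1.98, SE 0.06, adjusted p = 7.47e-33). Its share of the class was 10.8% ± 1.12 in PGC1A and 27.0% ± 1.03 in GFP, whereas SEMA6B held 17.4% ± 0.581 in PGC1A and 0.318% ± 0.109 in GFP. SEMA6C and SEMA6D were lower by log2 fold changes of −0.57 and −0.94, and for SEMA6C glmTreat gave an adjusted p of 0.577 against 1.5-fold.

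Secreted class 3 semaphorins, the classic growth cone repellents, held no member that rose. Of the 6 tested, 5 fell. SEMA3F, the ligand of neuropilin 2, was at 1.83, 1.67 and 2.35 CPM in PGC1A libraries, against 4.16, 4.22 and 4.66 CPM in GFP libraries (log2 fold change −1.16, SE 0.13, adjusted p = 6.28e-11). SEMA3C had the highest level per kilobase of all 76 members in GFP. It was at 169, 171 and 173 CPM in PGC1A libraries, against 289, 279 and 286 CPM in GFP libraries (log2 fold change −0.73, SE 0.03, adjusted p = 2.34e-30). SEMA3D was at −0.77, SEMA3A, the ligand of neuropilin 1, at −0.55 and SEMA3B at −0.44 (log2 fold changes). The last 2 were not shown to exceed 1.5-fold by glmTreat (adjusted p = 0.795 and 1). SEMA3E, the ligand of plexin D1, was not called (−0.23, adjusted p = 0.425), though it was with total counts (−0.55, adjusted p = 0.0486). In class 5, SEMA5A and SEMA5B were lower by log2 fold changes of −0.80 and −1.13.

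Plexins and neuropilins, the receptors of these cues, were lower as a class. Of 11 tested genes 10 fell and 0 rose, beside 42.1% lower and 40.9% higher among all genes tested. Their median log2 fold change was −1.28, and the level of PGC1A lay below that of GFP in every library for all 11 (background 42.7%). PLXNA3 (ENSG00000130827.6, chromosome X, 154458281 to 154477779), whose product works with neuropilin 2 in the response to SEMA3F, was at 18.5, 19.6 and 21.1 CPM in PGC1A libraries, against 74.1, 77.5 and 77.9 CPM in GFP libraries. The 3 PGC1A values were the lowest of the 6 (log2 fold change −1.96, SE 0.04, adjusted p = 6.32e-39, edgeR). NRP2, the co-receptor itself, was at 6.83, 7.17 and 7.55 CPM in PGC1A, against 24.2, 25.1 and 24.8 CPM in GFP (−1.78, SE 0.07, adjusted p = 2.06e-29). SEMA3F, NRP2 and PLXNA3, a ligand with its receptor pair, were thus all lower.

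PLXND1, known as the receptor of SEMA3E in blood vessels, was at 8.51, 8.65 and 8.18 CPM in PGC1A libraries, against 24.2, 26.5 and 24.5 CPM in GFP libraries (log2 fold change −1.57, SE 0.06, adjusted p = 1.86e-27). PLXNB1 was at 28.2, 31.4 and 35.0 CPM in PGC1A, against 87.5, 88.3 and 88.1 CPM in GFP (−1.48, SE 0.04, adjusted p = 7.42e-25). The PGC1A libraries differed from each other more than the GFP libraries did for this gene, yet stayed far below them. PLXNA2 had the most counts of the class in GFP, at 204, 208 and 208 CPM in PGC1A libraries, against 517, 528 and 526 CPM in GFP libraries (−1.34, SE 0.02, adjusted p = 1.52e-42). PLXNB2, PLXNB3 and PLXNA1 were lower by log2 fold changes of −1.28, −1.18 and −1.02. PLXNB3 shares 20.4% of its exon bases with SRPK3, a muscle kinase gene that rose by 2.19 on the log2 scale.

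Smaller differences closed the class. NRP1, the SEMA3A co-receptor that is also a co-receptor for VEGF, and PLXNA4 were at log2 fold changes of −0.52 and −0.22. Neither was shown to exceed 1.5-fold (glmTreat adjusted p = 1 for each). PLXNA4 therefore made up more of the class A plexins in PGC1A, 45.8% ± 0.852, than in GFP, 28.7% ± 0.220 (SD, n = 3, summed level per kilobase), and PLXNA2 made up 32.4% ± 0.148 in PGC1A and 44.0% ± 0.243 in GFP. PLXNC1, the receptor of SEMA7A, was at 4.52, 4.10 and 4.42 CPM in PGC1A libraries, against 4.63, 4.61 and 4.96 CPM in GFP libraries. It was not called (log2 fold change −0.13, SE 0.10, adjusted p = 0.258), though it was with upper-quartile factors (−0.25, adjusted p = 0.0231) and with total counts (−0.46, adjusted p = 0.000103). Over all classes, plexins and neuropilins gave 20.5% ± 0.385 of the members' summed level per kilobase in PGC1A and 29.4% ± 0.276 in GFP, while semaphorins gave 17.6% ± 0.253 in PGC1A and 17.5% ± 0.158 in GFP.

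**Figure D2:**
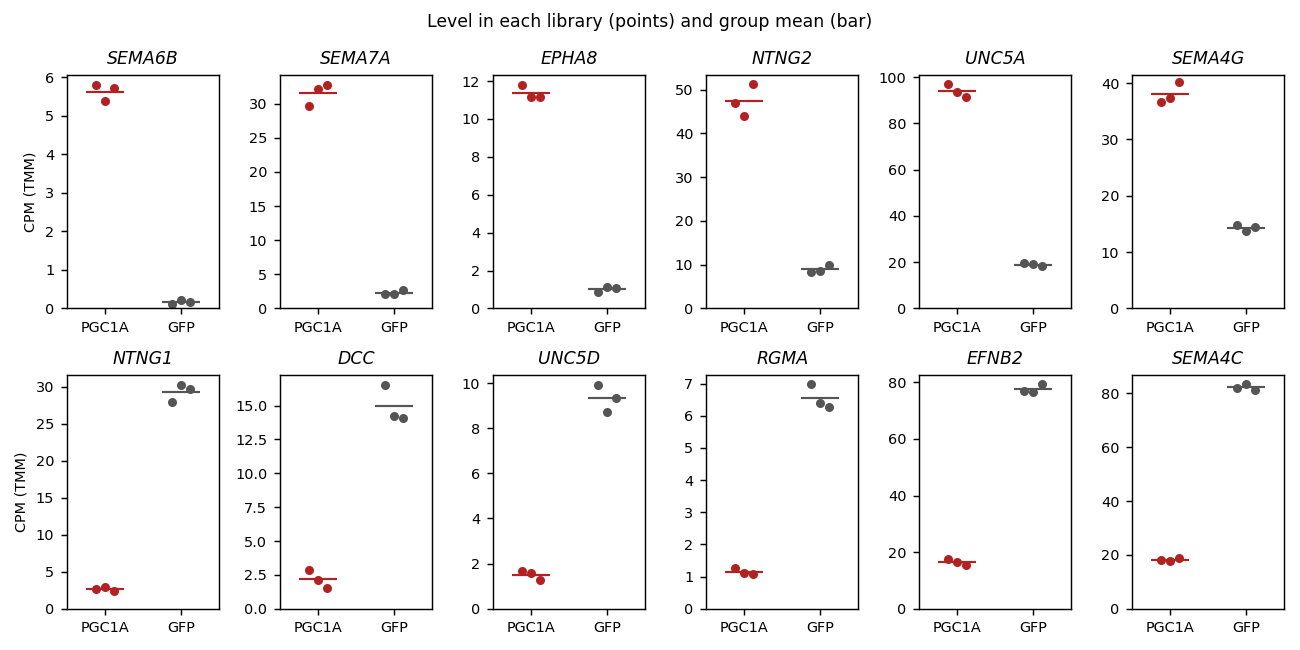
TMM-normalised CPM in each of the 6 libraries (points) and the group mean (bar) on linear axes from 0, for 6 genes that rose and 6 that fell, PGC1A on the left and GFP on the right. No gene shown has a PGC1A library among its GFP values; SEMA6B reaches 5.79 CPM in PGC1A and at most 0.211 in GFP, and NTNG1 reaches 2.92 CPM in PGC1A and at least 27.9 in GFP.

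Ephrins moved by subclass and member. Of 8 tested, 5 fell and 2 rose, beside 42.1% lower and 40.9% higher among all genes tested. EFNB2 (ENSG00000125266.6, chromosome 13, 106489731 to 106535662), the transmembrane ligand of EPHB4 and a marker of arteries, had the largest fall among ephrins. It was at 17.4, 16.5 and 15.4 CPM in PGC1A libraries, against 77.0, 76.5 and 79.4 CPM in GFP libraries (log2 fold change −2.24, SE 0.04, adjusted p = 4.14e-41). A long noncoding gene, AL138689.2, shares 26.2% of the EFNB2 exon bases. EFNB1 was at 13.0, 11.3 and 12.3 CPM in PGC1A, against 18.3, 17.9 and 17.6 CPM in GFP (−0.55, SE 0.06, adjusted p = 5.68e-11), and EFNB3, a midline repellent in the mouse, was lower by −0.48. Neither difference was shown to exceed 1.5-fold (glmTreat adjusted p = 0.694 for EFNB1 and 1 for EFNB3). EFNB2 made up 21.4% ± 0.628 of the 3 ephrin-B genes in PGC1A and 47.6% ± 0.741 in GFP, while EFNB3 made up 54.5% ± 0.696 in PGC1A and 35.7% ± 0.583 in GFP.

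The lipid-anchored ephrins of class A split. EFNA5, known for setting topographic maps in the mouse visual system, was at 14.5, 14.2 and 13.7 CPM in PGC1A libraries, against 42.0, 39.8 and 42.6 CPM in GFP libraries (log2 fold change −1.55, SE 0.05, adjusted p = 1.58e-31). EFNA3 was at 1.16, 0.986 and 1.60 CPM in PGC1A, against 4.91, 4.85 and 4.60 CPM in GFP (−1.94, SE 0.15, adjusted p = 8.17e-17). EFNA1, the main ligand of EPHA2, and EFNA4 were modestly higher. EFNA1 was at 20.3, 19.3 and 19.5 CPM in PGC1A, against 13.4, 14.3 and 12.8 CPM in GFP (0.54, SE 0.06, adjusted p = 1.92e-11), and EFNA4 was at 21.0, 20.1 and 19.8 CPM in PGC1A, against 14.3, 13.9 and 13.7 CPM in GFP (0.54, SE 0.06, adjusted p = 7.33e-12). By glmTreat these rises were not shown to exceed 1.5-fold (adjusted p = 0.786 for EFNA1 and 0.796 for EFNA4), nor shown to be smaller. EFNA3 and EFNA4 share 44.7% and 15.0% of their exon bases with AL691442.1, a protein-coding gene that spans parts of both, and reads there were lost to the count. EFNA2 was not called (0.27, adjusted p = 0.0582), although every PGC1A library lay above every GFP library; it was called without PGC1A replicate 1 (0.33, adjusted p = 0.0378) and with DESeq2-type size factors (0.31, adjusted p = 0.0322).

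Eph receptors divided between the A and B subclasses. Of the 5 EphA genes tested 4 rose and 1 fell, while of the 5 EphB genes 4 fell and 1 was not called. Among all genes tested, 40.9% rose and 42.1% fell. The difference between the subclasses was not tested, and the EPHA6 call is lost with total counts (log2 fold change 0.07, adjusted p = 0.568). EPHA8 (ENSG00000070886.11, chromosome 1, 22563564 to 22603594), a receptor of A-type ephrins, was at 11.8, 11.2 and 11.2 CPM in PGC1A libraries, against 0.890, 1.15 and 1.09 CPM in GFP libraries. All PGC1A values lay far above all GFP values (log2 fold change 3.43, SE 0.12, adjusted p = 8.91e-31, edgeR). EPHA2 (ENSG00000142627.12, chromosome 1, 16124337 to 16156087), the widely expressed epithelial Eph receptor, was at 156, 153 and 157 CPM in PGC1A, against 92.1, 94.5 and 94.9 CPM in GFP (0.73, SE 0.03, adjusted p = 2.51e-28). It had the highest level per kilobase of all 76 members in PGC1A, 37.3 CPM per kilobase, and ranked 7 in GFP, at 22.6.

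EPHA10, whose kinase domain is inactive, was at 2.46, 2.35 and 2.62 CPM in PGC1A libraries, against 1.35, 1.42 and 1.46 CPM in GFP libraries (log2 fold change 0.81, SE 0.16, adjusted p = 1.03e-05; glmTreat adjusted p = 0.053). EPHA6 was at 5.45, 4.10 and 4.78 CPM in PGC1A, against 3.92, 3.53 and 3.48 CPM in GFP (0.40, SE 0.11, adjusted p = 0.00142), and EPHA1 was at 0.784, 0.873 and 1.25 CPM in PGC1A, against 2.46, 2.53 and 2.38 CPM in GFP (−1.34, SE 0.18, adjusted p = 4.80e-09). All 3 are low genes with no overlap between groups. EPHA3, EPHA4 and EPHA7 had too few reads to test, with 1, 6 and 3 counts over the PGC1A libraries and 1, 5 and 4 over the GFP libraries. EPHA5 had 0 counts in all 6 libraries, which allows a level of up to 0.0340 CPM in PGC1A and 0.0347 CPM in GFP, counting error only.

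Among B-type receptors, EPHB4, the receptor of ephrin-B2, was at 43.9, 46.2 and 45.0 CPM in PGC1A libraries, against 88.0, 93.7 and 91.4 CPM in GFP libraries (log2 fold change −1.02, SE 0.04, adjusted p = 1.42e-30). EPHB2 was at 17.0, 16.2 and 16.4 CPM in PGC1A, against 40.5, 39.9 and 37.3 CPM in GFP (−1.24, SE 0.05, adjusted p = 1.05e-27), and EPHB1 was at 3.21, 3.38 and 3.95 CPM in PGC1A, against 9.50, 8.95 and 8.61 CPM in GFP (−1.36, SE 0.10, adjusted p = 1.10e-17). Both guide crossing axons at the midline in the mouse. EPHB6, another receptor without kinase activity, was lower by −0.93. EPHB3 was not called (−0.22, adjusted p = 0.057), but was called lower with upper-quartile factors (−0.35, adjusted p = 0.00301), with total counts (−0.55, adjusted p = 9.96e-06) and without PGC1A replicate 2 (−0.30, adjusted p = 0.0260). Since EPHA2 dominated the class, Eph receptors as a whole gave 13.4% ± 0.102 of the members' summed level in PGC1A and 8.64% ± 0.107 in GFP, the opposite of what plexins did.

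Of 3 SLIT ligand genes 1 was called higher and 0 lower, and of 4 ROBO receptor genes 3 were called lower and 0 higher. Among all genes tested, 40.9% rose and 42.1% fell. Against a 1.5-fold change (glmTreat), 0 SLIT genes passed and 2 ROBO genes were lower. SLIT2, a secreted midline repellent, was at 194, 188 and 191 CPM in PGC1A libraries, against 191, 189 and 190 CPM in GFP libraries. The groups overlapped (log2 fold change 0.01, SE 0.03, adjusted p = 0.837), though relative to total counts SLIT2 was at −0.32 (adjusted p = 1e-16). SLIT3 was at 220, 225 and 223 CPM in PGC1A, against 203, 214 and 210 CPM in GFP (0.09, SE 0.03, adjusted p = 0.00145), a small difference that turned to −0.04 with upper-quartile factors and −0.24 with total counts. SLIT1 was near 1 CPM and not called (−0.06, adjusted p = 0.819).

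ROBO1 (ENSG00000169855.19, chromosome 3, 78597240 to 79767815), the highest of the ROBO genes per kilobase, was at 51.6, 51.4 and 47.2 CPM in PGC1A libraries, against 118, 112 and 117 CPM in GFP libraries (log2 fold change −1.21, SE 0.03, adjusted p = 5.20e-34). ROBO2 was at 1.57, 1.18 and 1.76 CPM in PGC1A, against 5.23, 4.19 and 4.94 CPM in GFP (−1.67, SE 0.14, adjusted p = 6.99e-15). For both genes the PGC1A values lay well under the lowest GFP value. ROBO3, which in mammals does not bind SLITs with high affinity, was at 9.74, 11.5 and 12.4 CPM in PGC1A, against 16.4, 15.4 and 15.3 CPM in GFP (−0.49, SE 0.07, adjusted p = 2.66e-08; glmTreat adjusted p = 1). ROBO4, the endothelial member, was low and not called (−0.19, adjusted p = 0.595), and 16.9% of its exon bases lie in antisense genes.

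Netrins and their receptors moved in both directions. All 14 genes were called, 9 lower and 5 higher, with log2 fold changes from −3.46 to 2.40. Of the 19343 genes tested, 16057 were called, 42.1% lower and 40.9% higher. The netrin-G genes, whose lipid-anchored products bind NGL proteins at synapses and not DCC, exchanged places. NTNG2 (ENSG00000196358.10, chromosome 9, 132161676 to 132244534) was at 47.0, 44.0 and 51.3 CPM in PGC1A libraries, against 8.44, 8.47 and 9.98 CPM in GFP libraries (2.40, SE 0.06, adjusted p = 2.22e-29, edgeR). NTNG1 (ENSG00000162631.18, chromosome 1, 107140007 to 107483458) was at 2.61, 2.92 and 2.47 CPM in PGC1A, against 27.9, 30.2 and 29.7 CPM in GFP (−3.46, SE 0.08, adjusted p = 6.78e-38), the largest fall of any tested member. NTNG2 made up 95.4% ± 0.716 of the pair in PGC1A and 26.3% ± 1.77 in GFP (SD, n = 3, level per kilobase).

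The classic netrins were near the limit of detection. NTN1, the founding attractant, had 47 counts over the PGC1A libraries and 32 over the GFP libraries. Its call (log2 fold change 0.85, adjusted p = 0.0164) was lost without GFP replicate 2 (0.78, adjusted p = 0.0519), without PGC1A replicate 3 (0.68, adjusted p = 0.103) and with total counts (0.52, adjusted p = 0.136). NTN5, with 36 and 25 counts over PGC1A and GFP libraries, was called at 0.82 (adjusted p = 0.0408), and lost the call without GFP replicate 1 (0.87, adjusted p = 0.0589), GFP replicate 2 (0.61, adjusted p = 0.168) or PGC1A replicate 2 (0.57, adjusted p = 0.236). NTN4, a basement membrane netrin, was at 3.43, 3.41 and 2.58 CPM in PGC1A libraries, against 2.14, 2.38 and 2.30 CPM in GFP libraries (0.47, SE 0.14, adjusted p = 0.00214; with total counts 0.14, adjusted p = 0.352). NTN3 was lower by −0.61 (glmTreat adjusted p = 0.387).

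DCC (ENSG00000187323.11, chromosome 18, 52340172 to 53535903), the receptor of netrin attraction, fell to 2.84, 2.09 and 1.57 CPM in PGC1A libraries, against 16.5, 14.2 and 14.1 CPM in GFP libraries (log2 fold change −2.77, SE 0.12, adjusted p = 2.82e-21). Its relative NEO1, neogenin, the receptor of the repulsive guidance molecules, was at 36.3, 37.5 and 36.8 CPM in PGC1A, against 90.1, 93.0 and 93.4 CPM in GFP (−1.32, SE 0.04, adjusted p = 2.41e-35). RGMA, a neogenin ligand that repels axons, was at 1.27, 1.10 and 1.10 CPM in PGC1A, against 6.98, 6.39 and 6.28 CPM in GFP (−2.49, SE 0.13, adjusted p = 1.87e-22). RGMB, a co-receptor of bone morphogenetic proteins, was lower by −1.43, with 45.6% of its exon bases in antisense genes, of which RGMB-AS1 was lower by −1.46. DCC, NEO1 and both RGM ligands were thus lower in PGC1A in every library.

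UNC5 receptors, which carry netrin repulsion, changed in makeup. UNC5A (ENSG00000113763.10, chromosome 5, 176810477 to 176880898) was at 97.2, 93.7 and 91.3 CPM in PGC1A libraries, against 19.5, 19.3 and 18.2 CPM in GFP libraries (log2 fold change 2.31, SE 0.04, adjusted p = 2.72e-43). By level per kilobase it ranked 5 among the 76 members in PGC1A and 26 in GFP. UNC5B, also known as a receptor of vessels, was at 165, 174 and 177 CPM in PGC1A, against 303, 315 and 310 CPM in GFP (−0.84, SE 0.03, adjusted p = 3.48e-32). UNC5C was at 207, 206 and 189 CPM in PGC1A, against 462, 442 and 454 CPM in GFP (−1.18, SE 0.03, adjusted p = 4.92e-33), and UNC5D, which binds FLRT2, was at 1.68, 1.59 and 1.25 CPM in PGC1A, against 9.93, 8.71 and 9.34 CPM in GFP (−2.62, SE 0.12, adjusted p = 1.72e-25). UNC5A was the only one of the 4 that rose, under every scaling tried. Of the summed level of the family, it held 32.9% ± 0.812 in PGC1A and 4.70% ± 0.168 in GFP, while UNC5C held 28.5% ± 1.06 in PGC1A and 45.6% ± 0.928 in GFP and UNC5B held 38.4% ± 1.71 in PGC1A and 48.7% ± 1.00 in GFP.

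**Figure D3:**
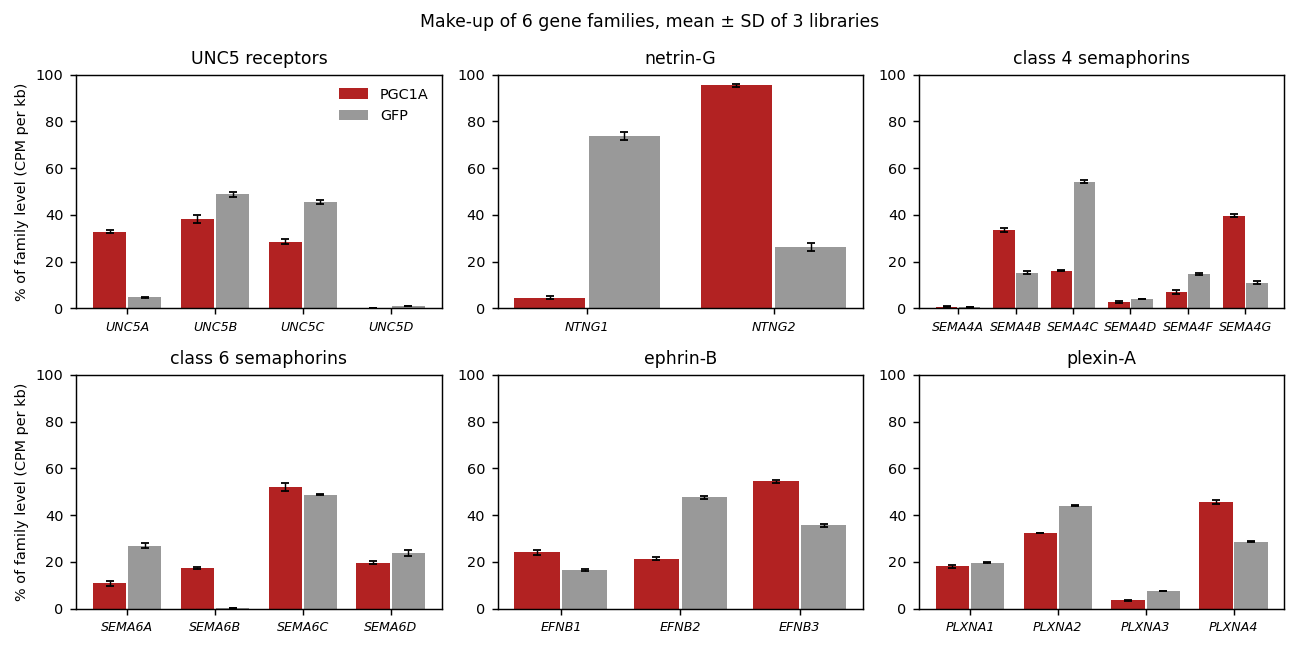
Share of each gene in the summed level per kilobase of its family, in percent, for 6 families, as mean and SD (error bar) of 3 libraries, PGC1A bars left of GFP bars. UNC5A stands at 32.9% against 4.70%, NTNG2 at 95.4% against 26.3%, SEMA4C at 16.2% against 54.2% and EFNB2 at 21.4% against 47.6%.

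The 2 genes taken in by spelling rose slightly. UNC50 was at 49.7, 49.1 and 51.0 CPM in PGC1A libraries, against 36.6, 36.6 and 36.3 CPM in GFP libraries (log2 fold change 0.45, SE 0.04, adjusted p = 4.86e-15; glmTreat adjusted p = 1). UNC5CL was at 1.72, 0.986 and 1.33 CPM in PGC1A, against 0.854, 0.904 and 0.982 CPM in GFP (0.55, SE 0.22, adjusted p = 0.0188), and lost its call without PGC1A replicate 1 (0.34, adjusted p = 0.212) or GFP replicate 1 (0.50, adjusted p = 0.0539). OARD1 shares 23.8% of the UNC5CL exon bases. Without this pair the guidance genes numbered 16 higher and 46 lower.

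Ratios of 2 genes within a library do not depend on how libraries are scaled, and 6 pairs were compared, picked after the values had been seen. NTNG2 over NTNG1 was 20.9 ± 3.34 in PGC1A and 0.357 ± 0.0327 in GFP (mean ± SD of levels per kilobase, n = 3). UNC5A over UNC5C was 1.15 ± 0.0350 in PGC1A and 0.103 ± 0.00425 in GFP. These pairs changed which member was the higher one. SEMA7A over its receptor PLXNC1 was 18.9 ± 1.71 in PGC1A and 1.26 ± 0.103 in GFP, and SLIT2 over ROBO1 was 4.27 ± 0.225 in PGC1A and 1.84 ± 0.0425 in GFP. Ligand thus stood higher against receptor in PGC1A for both pairs. EFNB2 over its receptor EPHB4 ran the other way, at 0.468 ± 0.0366 in PGC1A and 1.09 ± 0.0412 in GFP, and EPHA2 over EPHB4 was 5.34 ± 0.204 in PGC1A and 1.60 ± 0.0304 in GFP. The groups did not overlap in any of the 6 ratios. Each had a two-sided exact permutation p of 0.1, or 0.1 adjusted over the 6, the smallest that 3 against 3 libraries allow. The pairs were picked with these values known, so the lack of overlap and the p-values are descriptions only.

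**Figure D4:**
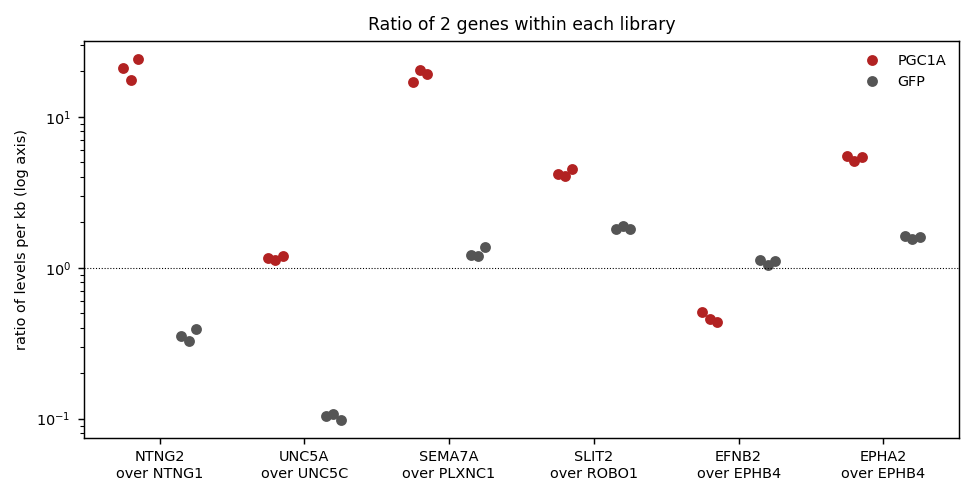
Ratio of the levels per kilobase of 2 guidance genes within each library, on a log axis, PGC1A points left of GFP points for each pair, 3 libraries each; the dotted line marks equal levels. NTNG2 over NTNG1 averages 20.9 in PGC1A and 0.357 in GFP, and EFNB2 over EPHB4 averages 0.468 in PGC1A and 1.09 in GFP.

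Promoter sequences were set beside these changes for the letters that factors working with PGC-1a are known to bind. RefSeq windows (GRCh38.p14) from 250 bases before to 50 bases after a start were at hand for 65 of the 76 members, 105 windows in all. The 11 members without a window include SEMA6B and NTNG2, which rose, and UNC5D and SEMA6A, which fell. The half-site of estrogen-related receptors, AAGGTCA on either strand, was in 2 member windows (1.90%), beside 3.92% of all 35116 windows and 2.76% of the 16556 windows of tested coding genes. The full site TCAAGGTCA, which contains the half-site, was in 0 member windows, beside 0.353% of all windows and 0.169% of those of tested coding genes. At such shares, 0 of 105 windows tells little. The NRF1 core GCGCANGCG was in 8 member windows (7.62%), beside 7.52% of all windows and 11.6% of those of tested coding genes. These belong to UNC5A, EPHA6 and UNC50, which rose, and to PLXNA1, RGMA, ROBO3 and SEMA3B, which fell. The GABP letters ACTTCCGG were in 1 member window, that of UNC50, beside 4.14% of all windows and 6.63% of those of tested coding genes. The GC box GGGCGG, bound by SP family factors, was in 73.3% of member windows, beside 44.95% of all windows and 64.1% of those of tested coding genes. It was in a window of 14 of the 14 members that rose and have a window, and of 34 of the 39 that fell. All were searched on both strands, and a match describes letters, not binding.

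The windows with the half-site belong to SEMA4G, which rose, and RGMA, which fell, so the same letters stood at genes of both directions. The SEMA4G window is chr10:100972279-100972578 on the plus strand and holds the site on the opposite strand, starting at −235 from the start site. The RGMA window is chr15:93073938-93074237 on the minus strand, with the site at −7. They are window 2 of 2 for SEMA4G and window 3 of 5 for RGMA, and which start these cells use was not tested. Capitals mark the half-site or its reverse complement, and each sequence reads 5′ to 3′ along the gene.
SEMA4G: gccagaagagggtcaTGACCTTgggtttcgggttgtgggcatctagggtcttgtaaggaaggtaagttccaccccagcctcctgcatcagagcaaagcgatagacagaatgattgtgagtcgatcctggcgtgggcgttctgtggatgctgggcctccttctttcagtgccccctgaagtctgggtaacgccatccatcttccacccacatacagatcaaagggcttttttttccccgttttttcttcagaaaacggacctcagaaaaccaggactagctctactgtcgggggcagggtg
RGMA: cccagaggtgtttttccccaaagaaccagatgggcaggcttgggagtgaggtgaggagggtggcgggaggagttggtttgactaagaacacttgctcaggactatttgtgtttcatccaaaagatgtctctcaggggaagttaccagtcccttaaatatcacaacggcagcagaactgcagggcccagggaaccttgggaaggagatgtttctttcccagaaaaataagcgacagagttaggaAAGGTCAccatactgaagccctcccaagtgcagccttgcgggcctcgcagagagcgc

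Windows of another pair are shown because SEMA7A and NTNG1 were among the members with the largest rise and fall and both carry GC boxes. The SEMA7A window is chr15:74433909-74434208 on the minus strand, with boxes starting at −223, −81 and −69. The NTNG1 window is chr1:107141085-107141384 on the plus strand, with 6 boxes, at −208, −53, −13, −6, 6 and 34. They are window 1 of 2 for SEMA7A and window 3 of 3 for NTNG1, again with use of these starts not tested. Capitals mark the GC box or its reverse complement. Neither window holds the half-site. Both genes were chosen for carrying GC boxes, so this pair cannot show whether the box goes with direction.
SEMA7A: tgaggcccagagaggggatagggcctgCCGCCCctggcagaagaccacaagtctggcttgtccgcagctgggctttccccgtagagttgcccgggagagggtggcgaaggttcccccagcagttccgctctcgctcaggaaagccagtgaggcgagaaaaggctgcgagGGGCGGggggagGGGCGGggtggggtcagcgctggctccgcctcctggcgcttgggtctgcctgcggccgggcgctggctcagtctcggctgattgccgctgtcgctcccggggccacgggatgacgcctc
NTNG1: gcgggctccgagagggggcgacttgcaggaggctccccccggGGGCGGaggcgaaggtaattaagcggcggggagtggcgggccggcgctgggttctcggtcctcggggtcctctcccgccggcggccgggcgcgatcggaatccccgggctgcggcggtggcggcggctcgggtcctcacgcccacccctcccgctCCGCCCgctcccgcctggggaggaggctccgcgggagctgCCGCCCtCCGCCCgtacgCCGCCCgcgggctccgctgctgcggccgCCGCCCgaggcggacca

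Genes that act downstream of the receptors were lower more often than higher. Of 54 intracellular effectors tested, 35 fell and 11 rose, and the median log2 fold change was −0.38. Falls and rises made up 42.1% and 40.9% of all genes tested. DPYSL5, DPYSL2 and DPYSL4, collapsin response mediator proteins that pass semaphorin signals to microtubules, were at 23.5, 53.8 and 26.6 CPM in PGC1A, against 126, 217 and 99.9 CPM in GFP (means of 3 libraries, log2 fold changes −2.43, −2.01 and −1.91, SE 0.04, 0.03 and 0.04). FYN, a Src family kinase used by plexins, Ephs and DCC, was at 11.2 CPM in PGC1A, against 58.1 CPM in GFP (−2.37, SE 0.05). These falls passed at adjusted p-values between 5.46e-46 and 4.54e-40. Among those that rose, ARHGEF12, the exchange factor that couples B-type plexins to RhoA, averaged 468 CPM in PGC1A, against 188 CPM in GFP (1.31, SE 0.06, adjusted p = 2.06e-06), and ABLIM1, an actin-binding protein, averaged 503 CPM in PGC1A, against 223 CPM in GFP (1.17, SE 0.02). VAV3 and NCK1, which act between Eph receptors and the cytoskeleton, rose by 1.55 and 0.67 on the log2 scale (SE 0.10 and 0.05). With total counts 7 effectors were called higher in place of 11.

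Of 27 other guidance cues and co-receptors tested, 20 fell and 7 rose, beside 42.1% lower and 40.9% higher among all genes tested, and their median log2 fold change was −0.79. The 7 include DSCAML1, with 60 counts over the PGC1A libraries and 2 over the GFP libraries. It was tested only because of its PGC1A libraries, so its rise is a description only. BOC, a hedgehog receptor that helps guide commissural axons in the mouse, had the largest fall, at 0.827 CPM in PGC1A, against 11.0 CPM in GFP (−3.73, SE 0.13, adjusted p = 8.63e-31). NRCAM, an adhesion molecule that works with neuropilin 2, averaged 109 CPM in PGC1A, against 577 CPM in GFP (−2.40, SE 0.03), and the secreted guidance protein gene RELN and the receptor phosphatase gene PTPRD fell by 1.88 and 1.78 (SE 0.04 and 0.06). LINGO1, a part of the Nogo receptor complex that inhibits outgrowth, averaged 34.9 CPM in PGC1A, against 4.11 CPM in GFP (3.08, SE 0.07, adjusted p = 1.61e-38), and the heparan sulfate proteoglycan gene SDC3 averaged 280 CPM in PGC1A, against 99.8 CPM in GFP (1.49, SE 0.03). GPC1, a glypican that binds SLITs, was at 0.54, not shown to exceed 1.5-fold (glmTreat adjusted p = 1).

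Marker lists of this and other cell types differed in summed level between the groups, while 42.1% of all genes tested were called lower and 40.9% higher. Of the noradrenergic list 7 of 8 tested genes were lower and 0 higher, and of the mesenchymal list 8 of 10 were lower and 0 higher, at a summed 1673 to 1700 CPM in PGC1A libraries and 3381 to 3439 CPM in GFP libraries. Schwann cell and glial markers summed to 1.80 to 2.43 CPM in PGC1A and 7.71 to 8.72 CPM in GFP, with SOX10 at 0 in all libraries (3 of 7 tested, 1 higher and 2 lower). Endothelial markers, which bear on EFNB2, EPHB4, PLXND1 and UNC5B, summed to 18.7 to 20.5 CPM in PGC1A and 4.27 to 5.33 CPM in GFP, of which ESAM made up 16.4 CPM in PGC1A and 2.90 CPM in GFP; 4 of 6 tested were higher and 2 lower. Immune markers summed to 2.77 to 3.05 CPM in PGC1A and 1.14 to 1.43 CPM in GFP, with CD3E at 0 in all libraries and 1 of 2 tested called, higher. Their part in the guidance gene differences was not tested.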

How the data were processed

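The authors deposited raw read counts per gene for the 6 libraries, made from poly(A) RNA with a directional kit, per the labels' protocols. Per the submitters' processing notes, the build was GRCh38 and the tools were HTSeq 0.10.0, STAR 2.6.0c, DRAGEN and DESeq2 1.20.0. Their roles, the annotation release and the strand setting are not given in the sources. Summary lines with 28.8% to 31.0% of the reads were left out. Of 707 genes wholly covered by exons of the opposite strand, 690 had no read, beside 49.4% with a read among 24425 short genes free of overlap, so counting did not separate strands, and reads in exon bases shared by genes were not counted.

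Of 58096 gene IDs, 57447 matched GENCODE 29. Counts were tested with edgeR 4.0.16 in R 4.3.3 (TMM factors, filterByExpr at a minimum count of 10 and a total of 15, robust quasi-likelihood F test, group as the only term, Benjamini-Hochberg over 19343 genes, threshold 0.05, two-sided). The procedure was run on simulated counts in which few genes changed, in both directions. Most genes were called in these data, so the simulation does not test the scaling or the error rate here. CPM are TMM-normalised, and fold changes are PGC1A over GFP. Levels of different genes are compared as CPM per kilobase of exon. Gene counts of 24988743 to 31762496 per library set the precision, and without molecular identifiers limits cover counting error only.

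The members, the lists and the markers were chosen with earlier results of these data known. Values in every library are given for members with an adjusted p under 0.05, groups that do not overlap and a mean of at least 1 CPM, up to the 4 largest rises and 4 largest falls of each class, and, after their values were seen, for PLXNA2, PLXNC1, SEMA3C, SLIT2, NEO1, UNC5B and UNC5C. Of the other pathway lists, up to 4 rises and 4 falls at 5 CPM or more are named. Alternatives were other scalings, filters, DESeq2 1.42.0, limma-voom (limma 3.58.1), glmTreat, the replicate block and each library left out. A count of members without genes that share at least 10% of exon bases, and one without UNC50 and UNC5CL, were chosen after seeing the data.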

Additional observations from a re-analysis of the deposited data

How the results depend on the processing

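Of the 64 guidance genes called, 57 kept their call and direction under the 16 alternatives other than glmTreat, and 44 also under glmTreat. Against a 1.5-fold change (glmTreat), 8 guidance genes were higher and 36 lower, beside 4766 higher and 4475 lower of all genes. Of the effectors, 6 were higher and 23 lower by this test. With total counts 7 effectors were higher, SLIT3 turned to −0.24 and SLIT2 to −0.32 (log2), and 5 guidance genes lost their call (NTN1, NTN4, NTN5, EPHA6 and UNC5CL) while 4 gained one, all lower (PLXNC1, SLIT2, SEMA3E and EPHB3). With upper-quartile factors SLIT3 turned to −0.037 and SLIT2 to −0.12, 2 calls were lost (NTN5 and UNC5CL) and 3 gained (PLXNC1, SLIT2 and EPHB3). The log2 change of the members' summed level, −0.47, was −0.43 with DESeq2-type factors, −0.60 with upper-quartile factors and −0.80 with total counts, which differ only in the library sizes used. All genes numbered 7909 higher and 8148 lower as reported, 8179 and 7869 with DESeq2-type factors, 7047 and 9234 with upper-quartile factors, and 5779 and 10742 with total counts. The DESeq2 Wald test lost 4 guidance gene calls (NTN1, NTN5, UNC5CL and SEMA4A) and gained 0. Leaving out 1 library gave 16 to 18 guidance genes higher. Leaving out genes with shared exon bases gave 15 higher. Same-numbered libraries did not deviate together (r of −0.0114, 0.00628 and 0.0109), so the numbers do not pair them; with the replicate block, 18 guidance genes were higher and 46 lower, and 0 calls among them changed. Depth limits the genes under about 1 CPM, such as NTN1, NTN5, SLIT1 and SEMA4A.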
